A study of Mus musculus with 8 samples.

Results

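Shelterin is the protein complex that covers the ends of mammalian chromosomes, and Terf2ip, the gene deleted in the mice profiled here, encodes its subunit RAP1. The 10 genes described were chosen by name, as the genes of shelterin and of its telomerase and helicase partners. Shelterin gave 7 of them (Terf2ip, Terf1, Terf2, Tinf2, Pot1a, Pot1b and Acd) and the partners 3 (Tert, Tep1 and Rtel1). The arrays read them with 14 probes, among 55681 probes in all and 19752 genes with a symbol, and 13 of the 14 probes were bright enough to enter the comparison over all probes.

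Mammalian telomeres are long tracts of the repeat TTAGGG that end in a single-stranded overhang. TRF1 and TRF2, the products of Terf1 and Terf2, bind the double-stranded repeat, TIN2 (Tinf2) joins them, and TPP1 (Acd) links TIN2 to the POT1 proteins on the overhang. RAP1 reaches the telomere by binding TRF2, and it also occupies sites elsewhere in the genome. Telomerase, with the catalytic subunit TERT, adds repeats to the chromosome end, and TPP1 recruits it there. Where shelterin is lost from a telomere the end can be read as a DNA break.

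Liver was taken from 4 Rap1-/- and 4 wild-type mice, all 10 weeks old and all on a C57BL6/129SV background (90%:10%). The knockout is constitutive and present in the whole body: EIIa-cre, a transgene whose viral promoter works in oocytes and before implantation, removed the floxed part of Rap1 (flox/flox), and offspring inherited the deleted allele. Each array held liver RNA from 1 mouse, read in a single colour, and the labels call the mice of a genotype biological replicates. The labels give neither sex nor feeding state. For its expression work at this age the study used females, and it had both fed and fasted livers. The deletion is thus carried by every cell type of the liver and by every other organ.

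Each array's 75th percentile of intensity, to which all values were scaled, was higher on all Rap1-/- arrays, between 219.8 and 226.9, than on the wild-type arrays, between 178.9 and 209.3, and 50.03% to 65.3% of probes were well above background, lowest in Rap1-/- replicate 1. Correlations between arrays ran from 0.980 to 0.992, and averaged 0.986 within a genotype and between genotypes alike. All 10 hepatocyte markers on a list (among them Alb, Apob and Cyp2e1) were measured, as were all 7 Kupffer cell and all 6 sinusoidal endothelial markers, and 0 of 5 adipocyte markers. Each of the 2 slides held 2 arrays of each genotype, but Rap1-/- arrays lay in positions 3 and 4 and wild-type arrays in positions 1 and 2, so that position and genotype cannot be told apart.

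Terf2ip itself was examined first. Both of its probes are annotated to the same transcript, NM_020584, and they differed between genotypes in opposite directions. On probe A_52_P381806 the processed intensity was 4.38, 2.61, 2.31 and 2.52 in the 4 Rap1-/- livers, against 183, 208, 237 and 245 in the 4 wild-type livers. All 4 Rap1-/- arrays were far below every wild-type array, and none of them was well above background. In log2 units about each array's 75th percentile the probe averaged -6.28 ± 0.43 in Rap1-/- liver and 0.14 ± 0.09 in wild-type liver (SD, n = 4 each), a measured difference of -6.42 (SE 0.20, limma, adjusted p = 7.09e-06). The probe entered this test only through its 4 wild-type arrays, and the SE and adjusted p rest on background readings in Rap1-/- liver. Because the Rap1-/- signal is only a background reading, the change can be given as a bound: signal was at least 17.9-fold lower in Rap1-/- liver, taking for every Rap1-/- array the faintest signal that was still called well above background there. The bound was 14.4-fold on the first slide and 22.2-fold on the second.

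Probe A_55_P2094079 of the same gene was well above background on all 8 arrays. Its intensity was 272, 301, 282 and 232 in Rap1-/- livers, against 82.2, 114, 96.8 and 130 in wild-type livers. Here every Rap1-/- array was above every wild-type array. The probe averaged 0.29 ± 0.18 in Rap1-/- liver and -0.92 ± 0.22 in wild-type liver (SD, n = 4 each), 2.30-fold higher in the knockout (log2 difference 1.20, SE 0.15, 95% confidence interval 0.87 to 1.53). It did not pass after adjustment over all probes (limma, adjusted p = 0.127), nor over all genes, where it stands for Terf2ip as the gene's tested probe with the higher mean (adjusted p = 0.0725), but it passed over probes in a fit with trended and robust variance (adjusted p = 0.0373). A_55_P2094079 ranked as number 5 of all 31065 tested probes by p, and A_52_P381806 as number 1, a rank that rests on background readings in Rap1-/- liver. The difference was 1.32 on the first slide and 1.09 on the second.

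The genotype differences of the 2 Terf2ip probes lay at least 5.36 apart on the log2 scale, with the Rap1-/- readings of A_52_P381806 raised to the same bound (A_55_P2094079 minus A_52_P381806, two-sided exact permutation p = 0.0286, the smallest that 4 against 4 arrays allow). With the background readings as they stand the distance was 7.62. The same contrast was computed for 5 pairs of probes in all, those of Terf2ip, Terf2 and Tinf2, and adjusted over these pairs the p was 0.143. In the authors' own normalized table, whose values matched a normexp background correction with an added offset of 50, A_52_P381806 averaged 5.98 ± 0.07 in Rap1-/- liver and 8.29 ± 0.03 in wild-type liver, and A_55_P2094079 averaged 8.42 ± 0.16 in Rap1-/- liver and 7.52 ± 0.15 in wild-type liver (SD, n = 4 each). The opposite directions stood in that table too, with differences of -2.31 and 0.90. There the probes lay 3.21 apart. With the mean of both probes in place of A_55_P2094079, Terf2ip passed as lower among genes. Which part of Terf2ip was deleted relative to either probe was not analysed here, since the files give no position within the transcript for the probes.

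**Figure D1:**
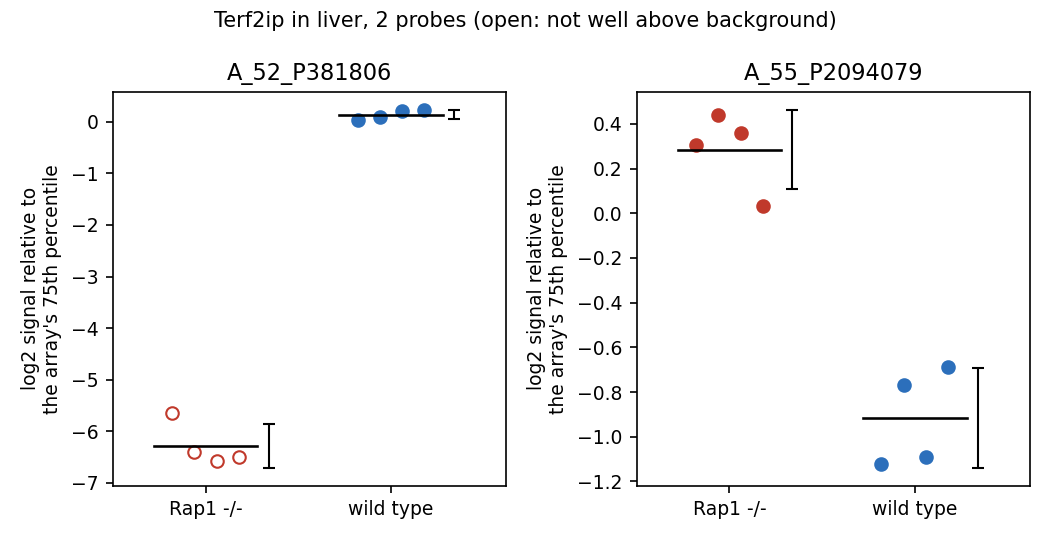
Signal of the 2 Terf2ip probes in liver, as log2 relative to the array's 75th percentile (vertical axes, which differ in range), with Rap1-/- mice at left and wild-type mice at right. Each point is a mouse (open circles were not well above background), lines are means and whiskers ± 1 SD (n = 4); Rap1-/- arrays lie at -6.57 to -5.65 below all wild-type arrays for A_52_P381806, and at 0.03 to 0.44 above all of them for A_55_P2094079.

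Among the 13 tested probes of shelterin and its partners, 1 passed as lower in Rap1-/- liver, the Terf2ip probe A_52_P381806, and 0 passed as higher. A_52_P381806 had met the filter through its wild-type arrays alone. Over all tested probes 2 of 31065 passed as lower (0.00644%) and 0 as higher. At an unadjusted p under 0.05 (limma) stood 2 of the 13, both of them the probes of Terf2ip, beside 6.12% of all tested probes. Likewise the genotypes did not overlap on 2 of the 13, beside 4.19% of all tested probes. The 11 tested probes of the other 8 genes had log2 differences between -0.17 and 0.43 with SEs between 0.10 and 0.45, and their adjusted p ran from 0.860 to 0.992. Of these 11 differences 7 lay above 0 and 4 below, the median was 0.01 beside -0.00 over all tested probes, and under other scalings Acd, Rtel1 and the Tinf2 probe A_55_P2087865 moved below 0. In whole liver, fewer cells of a type and less RNA per cell cannot be told apart, for these genes as for all others.

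**Figure D2:**
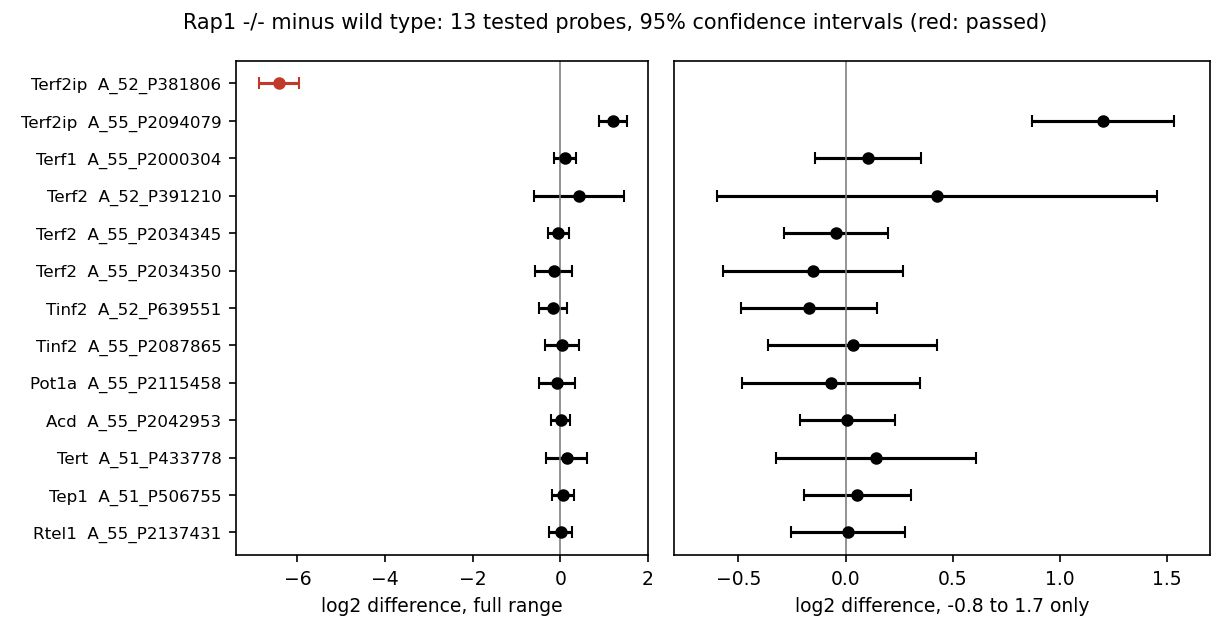
Log2 difference, Rap1-/- minus wild type, of each tested probe of the shelterin and partner genes, with 95% confidence intervals from limma (4 mice per genotype); the left panel shows the full range and the right panel -0.8 to 1.7 only, and the probe that passed is red. The Terf2ip probes lie at -6.42 and 1.20, and the intervals of the 11 other probes all hold 0.

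The proteins that bind double-stranded telomeric repeats were described next. Terf1, whose product TRF1 also helps replication forks through the repeats, was at 1.71, 1.77, 1.67 and 2.00 in Rap1-/- livers (log2, scaled as above), against 1.72, 1.64, 1.77 and 1.60 in wild-type livers. Only Rap1-/- replicate 4 was above every wild-type array, and the other Rap1-/- arrays lay among them. The log2 difference was 0.11 (SE 0.11, 95% confidence interval -0.14 to 0.35), so that the interval reached from 0.906-fold to 1.28-fold.

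Terf2 encodes TRF2, the anchor of RAP1 at telomeres and the shelterin subunit that holds back ATM signalling and end-to-end fusion. It was read by 3 probes. Probe A_55_P2034345 (NM_009353) had log2 values of 1.24, 1.09, 1.28 and 1.26 in Rap1-/- livers, against 1.22, 1.43, 1.12 and 1.28 in wild-type livers. The genotypes overlapped almost fully, with a difference of -0.05 (SE 0.11, 95% confidence interval -0.29 to 0.20), or between 0.818-fold and 1.15-fold. Probe A_55_P2034350, annotated to another Terf2 transcript (NM_001083118), was at -0.74, -1.37, -1.06 and -1.17 in Rap1-/- livers, against -0.65, -0.82, -0.92 and -1.34 in wild-type livers. Its values overlapped as well, and the difference was -0.15 (SE 0.18).

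The remaining Terf2 probe, A_52_P391210 (NM_009353), stood apart in 1 mouse. It was at 0.87, -1.23, -1.37 and -1.05 in Rap1-/- livers, against -1.18, -1.35, -1.06 and -0.90 in wild-type livers. Rap1-/- replicate 1 was higher than all the other arrays, at an intensity of 403 where the other 7 lay between 76.0 and 112, and the remaining Rap1-/- arrays lay among the wild-type arrays or just below them. The log2 difference of 0.43 (SE 0.45, adjusted p = 0.891) rested on that array. Without it the difference was -0.10 (SE 0.15), and within slides it was 1.08 on the slide that held replicate 1 and -0.23 on the other. On both other Terf2 probes replicate 1 lay within the wild-type range, and it was the array with the lowest share of probes well above background, whose part in this value was not tested. The residual SD of this probe was above that of 96.7% of tested probes, against 9.80% for A_55_P2034345.

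**Figure D3:**
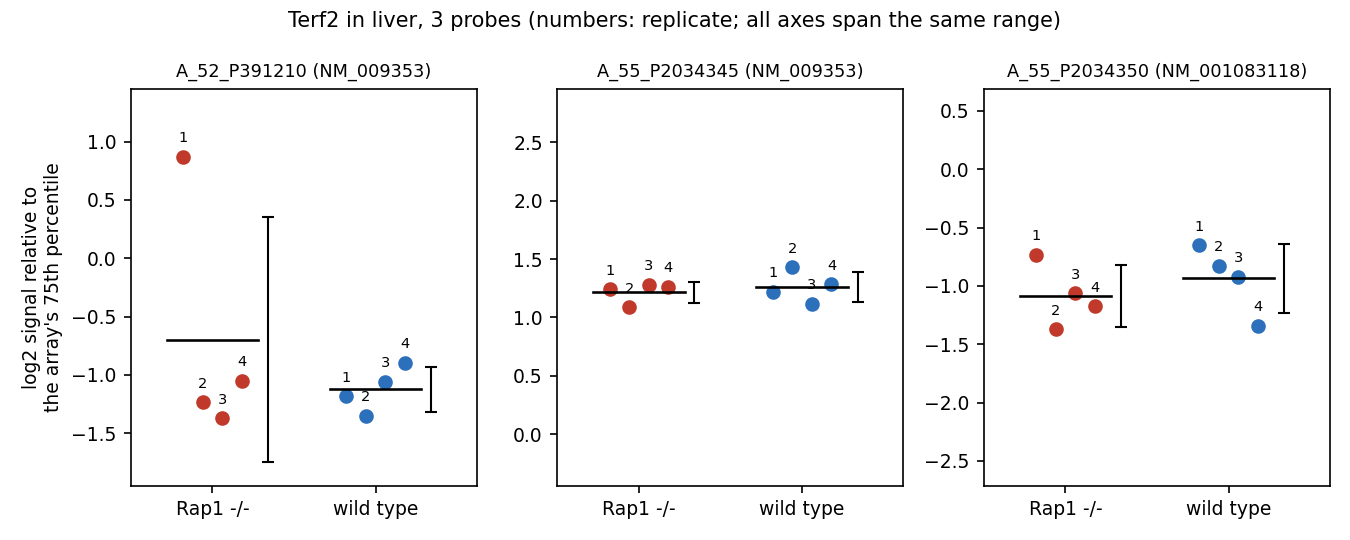
Signal of the 3 Terf2 probes, as log2 relative to the array's 75th percentile (vertical axes, each spanning the same range), with Rap1-/- mice at left and wild-type mice at right. Points are single mice numbered by replicate, lines are means and whiskers ± 1 SD (n = 4); Rap1-/- replicate 1 stands at 0.87 on A_52_P391210, where the other arrays lie between -1.37 and -0.90.

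Tinf2 encodes TIN2, which holds TRF1, TRF2 and TPP1 together, and was read by 2 probes of 1 transcript (NM_145705). On A_52_P639551 the log2 values were 0.48, 0.80, 0.53 and 0.70 in Rap1-/- livers, against 0.53, 0.95, 0.70 and 1.00 in wild-type livers. A pair of Rap1-/- arrays was below the lowest wild-type array, the genotypes overlapped, and the difference was -0.17 (SE 0.14, 95% confidence interval -0.49 to 0.15). On A_55_P2087865 they were 1.20, 1.02, 0.84 and 1.08 in Rap1-/- livers, against 0.62, 1.10, 0.88 and 1.40 in wild-type livers. All Rap1-/- arrays lay inside the wild-type range, and the difference of 0.03 (SE 0.17) changed sign with the normalization. The genotype differences of the 2 probes lay -0.20 apart (A_52_P639551 minus A_55_P2087865, two-sided exact permutation p = 0.171).

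Acd encodes TPP1, the subunit that recruits telomerase and carries the POT1 proteins. Its probe was at 2.43, 2.67, 2.46 and 2.54 in Rap1-/- livers, against 2.44, 2.58, 2.52 and 2.52 in wild-type livers. These were the tightest values among the genes described, and 3.73% of all tested probes had a smaller residual SD. The log2 difference was 0.01 (SE 0.10), and its 95% confidence interval from 0.862-fold to 1.17-fold was the narrowest among them.

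Mice carry a pair of POT1 genes where humans have a single one. POT1a holds back ATR signalling at the single-stranded overhang. Pot1a was at 3.42, 3.41, 2.77 and 3.53 in Rap1-/- livers, against 3.11, 3.37, 3.39 and 3.53 in wild-type livers. Rap1-/- replicate 3 lay below all other arrays and the rest overlapped. The log2 difference was -0.07 (SE 0.18), and 0.10 (SE 0.13) without that replicate.

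POT1b limits the resection of the strand that ends in 5′ at the telomere. Pot1b did not enter the comparison over all probes: its probe, printed in 10 spots on each array, was well above background on 1 of 4 Rap1-/- arrays and on 0 of 4 wild-type arrays. Single spots were well above background in 15 of 37 cases in Rap1-/- livers and in 7 of 38 in wild-type livers, after 5 spots called outliers by the scanner software were left out. Spots of 1 array are not independent samples, and their SD within an array, 0.28 to 0.49 in Rap1-/- livers and 0.24 to 0.44 in wild-type livers, was wider than the SD between arrays of a genotype. The mean over spots was -3.73, -3.73, -4.05 and -3.94 in Rap1-/- livers, against -4.15, -3.88, -4.05 and -4.38 in wild-type livers. A pair of Rap1-/- arrays was above all wild-type arrays, the genotypes overlapped, and the two-sided exact permutation p was 0.143 for means of -3.86 ± 0.16 in Rap1-/- liver and -4.11 ± 0.21 in wild-type liver (SD, n = 4 each). Without the filter on dim probes its log2 difference was 0.25 (SE 0.15, limma, adjusted p = 0.964), so that no difference in Pot1b was called, on signals close to background.

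**Figure D4:**
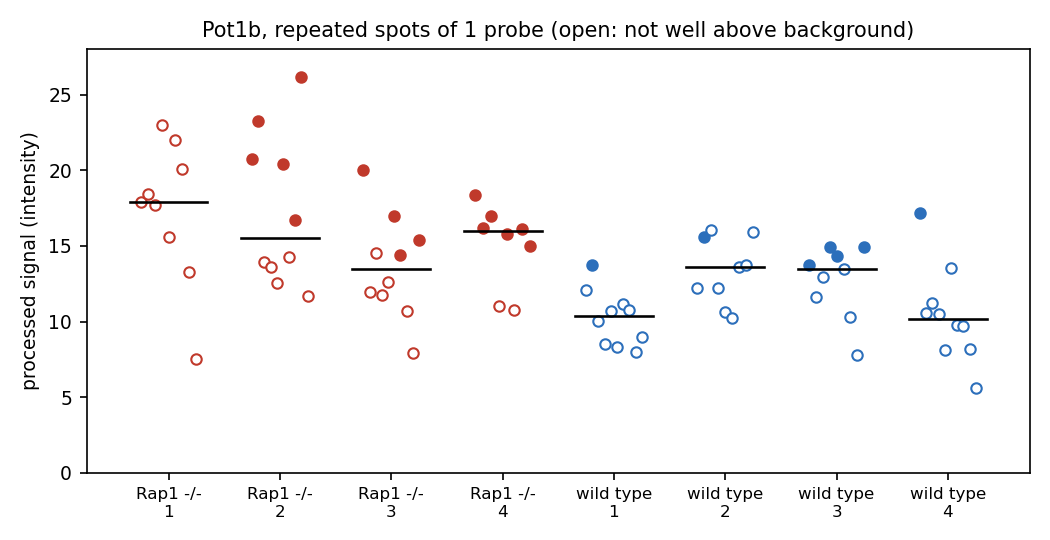
Processed intensity (vertical axis, linear) of the repeated spots of the Pot1b probe in each array (horizontal axis, the 4 Rap1-/- mice at left and the 4 wild-type mice at right). Points are single spots, open where not well above background, and lines are medians over spots; array medians lie between 13.5 and 17.9 in Rap1-/- arrays and between 10.2 and 13.6 in wild-type arrays.

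Away from telomeres the study names a tandem pair of the telomeric repeat as the motif that RAP1 prefers, so the promoters of the shelterin and partner genes were read for the pair and for a single repeat. RefSeq windows (GRCm38.p6) from 250 bases before to 50 after the start were at hand for 8 of the 10 genes (all but Terf1 and Tep1). The tandem pair was found in 0 of them and in 0.0122% of all 32851 windows of the table. A single TTAGGG, read on both strands, occurred for 1 of the 8 genes, Pot1b, beside 12% of all 27025 genes of the table. The match is shown because it is the only one among these genes, with the motif in capitals and on the strand of the gene. It lies on chromosome 17 at chr17:55712744-55712773, minus strand, 125 or 137 bases before either of the annotated Pot1b starts.
Pot1b: cagaaaaatccaTTAGGGgcgtggaaagag
A match of letters is a description and no binding site, and Pot1b was the 1 gene whose signal was too dim to pass the filter.

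Telomerase and the helicase partner were then read. Tert, the reverse transcriptase of telomerase, was dim but measurable, with intensities between 97.9 and 167 in Rap1-/- livers and between 76.9 and 136 in wild-type livers. Its log2 values were -0.77, -1.18, -0.39 and -0.95 in Rap1-/- livers, against -0.89, -1.33, -0.60 and -1.04 in wild-type livers. The spread within each genotype was wide and the ranges overlapped. The difference was 0.14 (SE 0.21), with a 95% confidence interval from 0.799-fold to 1.53-fold, which leaves room for changes of either direction.

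Tep1, which encodes a telomerase-associated protein that is also part of vault particles, was at 2.36, 2.27, 2.37 and 2.04 in Rap1-/- livers, against 2.22, 2.30, 2.13 and 2.16 in wild-type livers. A pair of Rap1-/- arrays was above and 1 below all wild-type arrays, and the difference was 0.05 (SE 0.11). Rtel1, a helicase that unwinds the telomeric loop, was at 1.88, 1.63, 1.92 and 1.74 in Rap1-/- livers, against 1.94, 1.81, 1.77 and 1.59 in wild-type livers. All Rap1-/- arrays lay inside the wild-type range, with a difference of 0.01 (SE 0.12, 95% confidence interval from 0.839-fold to 1.21-fold). The levels of different genes have no order here, because each probe binds its own target with its own strength.

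**Figure D5:**
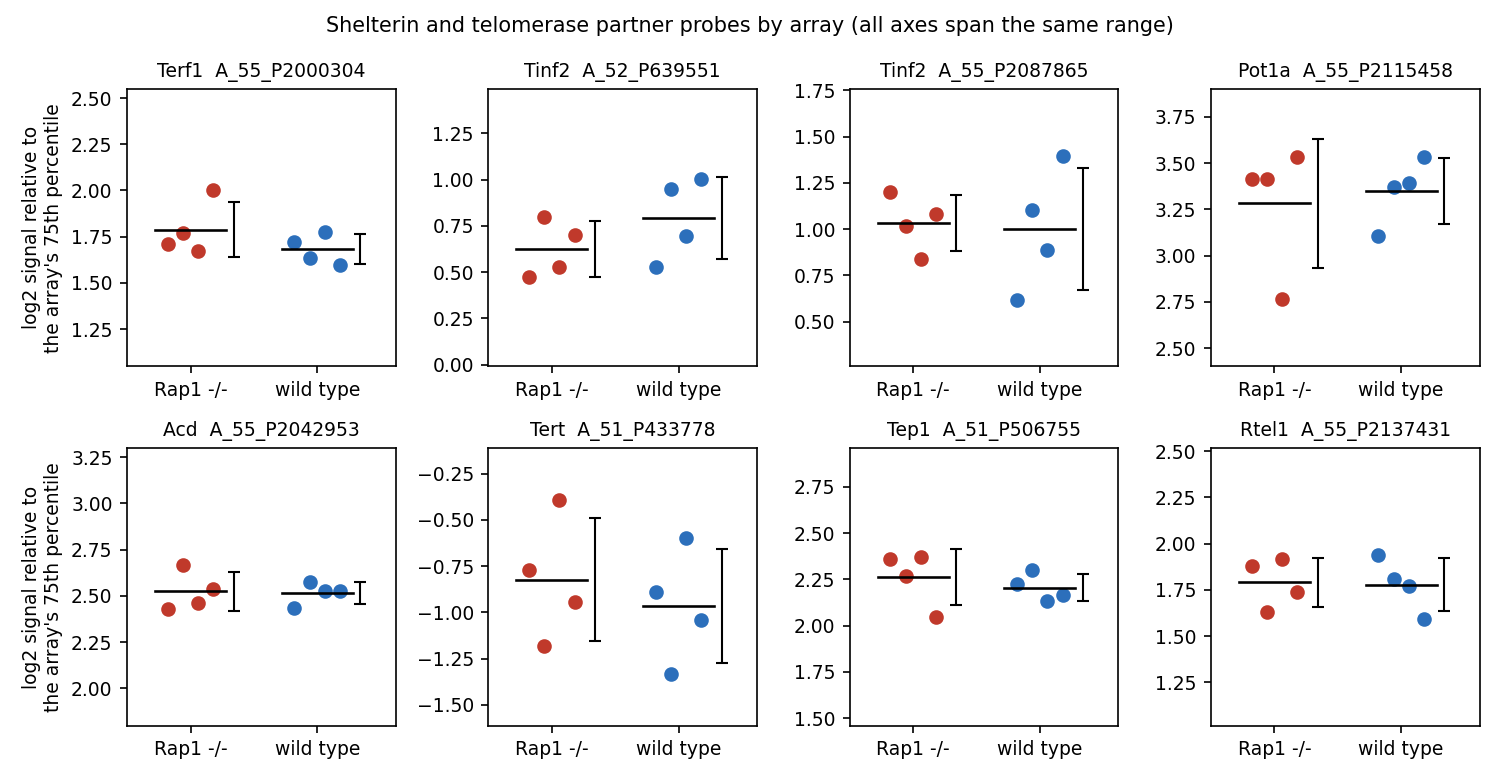
Signal of 8 probes of Terf1, Tinf2, Pot1a, Acd, Tert, Tep1 and Rtel1 as log2 relative to the array's 75th percentile (vertical axes, each spanning the same range), with Rap1-/- mice at left and wild-type mice at right in each panel. Points are single mice, lines are means and whiskers ± 1 SD (n = 4); the genotypes overlap in every panel, with Pot1a at 2.77 in Rap1-/- replicate 3.

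Other genes of telomere upkeep were read at gene level, with 1 probe for each gene, from lists of names. In every list 0 genes passed (limma), beside 2 of all 14063 tested genes (0.0142%), and the median over all tested genes was 0.02. All 15 genes of telomerase assembly were tested, with a median log2 difference of -0.01 and 0 at an unadjusted p under 0.05, beside 6.36% of all tested genes. Pinx1, an inhibitor of telomerase that binds TRF1, lay lowest among them at -0.39 (SE 0.20). Smg5 and Smg6, relatives of yeast Est1 that also act in nonsense-mediated decay, were at -0.25 (SE 0.19) and -0.16 (SE 0.12). The 7 genes of the CST complex and of strand fill-in had a median of -0.02. The primase subunits Prim1 and Prim2 were at 0.25 (SE 0.15) and 0.16 (SE 0.11), and Pola2, a subunit of DNA polymerase alpha, at -0.25 (SE 0.22).

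Of 10 regulators of shelterin proteins 9 were tested, with a median of -0.02. Tnks, the tankyrase that removes TRF1 from telomeres in human cells, was at -0.24 (SE 0.16), the TRF1-binding GTPase gene Gnl3l at -0.15 (SE 0.14) and the ubiquitin ligase gene Fbxo4 at 0.07 (SE 0.12). In the list of repair and replication proteins that act at telomeres all 20 genes were tested, and 12 lay above 0 with a median of 0.10. At an unadjusted p under 0.05 stood 2 of them, both higher, beside 4.01% of all tested genes in that direction. Rad50, of the MRN complex that senses breaks, was between 0.32 and 0.40 in Rap1-/- livers, against -0.04 to 0.19 in wild-type livers, without overlap, beside 4.19% of all tested probes. Its difference was 0.24 (SE 0.09, adjusted p = 0.769). Prkdc, the catalytic subunit of DNA-PK, differed by 0.39 (SE 0.17, adjusted p = 0.775) and its genotypes overlapped. Xrcc5, which encodes Ku80, differed by 0.22 (SE 0.11).

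Of 15 genes of telomeric chromatin 14 were tested, with a median of 0.02. H3f3a and H3f3b, which both encode histone H3.3, differed by 0.24 (SE 0.08, adjusted p = 0.769) and 0.20 (SE 0.11), and Atrx, which encodes the remodeller that places H3.3 at telomeres, by -0.19 (SE 0.09). The 12 genes of damage signalling had a median of 0.04, and 0 had an unadjusted p under 0.05. Cdkn1a, the p53 target that arrests the cycle, differed by 0.46 with an SE of 0.59, H2ax by -0.21 (SE 0.25) and Trp53 by -0.12 (SE 0.16). RAP1 has been described as a partner of the IKK kinases that activate NF-kappaB, and all 5 genes of that list were tested, with Rela at -0.10 (SE 0.09), Ikbkb at 0.12 (SE 0.11) and Ikbkg at 0.13 (SE 0.16). A list of 9 mitochondrial and p53-linked genes that have been tied to dysfunctional telomeres had a median of -0.03. It was written around transcripts that the study had assayed by qPCR, Ppargc1a among them, with a pair of subunit genes for its ATP synthase assay, and is no independent choice. The leading ones were Cycs, cytochrome c, at 0.29 (SE 0.19), the transcription factor gene Nrf1 at -0.14 (SE 0.10) and the ATP synthase subunit gene Atp5b at 0.12 (SE 0.10). The study reported Ppargc1a as reduced by qPCR in liver of young Rap1-/- females. On these arrays, whose feeding state is not given, it differed by -0.08 (SE 0.30, 95% confidence interval -0.76 to 0.60).

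Markers of liver cell types were set beside these values as measured facts. The summed level of the 10 hepatocyte markers, in units of the array's 75th percentile, was 7033 to 7342 in Rap1-/- livers and 7555 to 8274 in wild-type livers, without overlap. Of all single tested probes 4.19% did not overlap. The 75th percentile was itself higher on all Rap1-/- arrays, and its part in this sum was not tested. This sum gives most weight to the brightest markers, among them Alb, which differed by -0.21 (log2, SE 0.09, limma, adjusted p = 0.769). Of the 10 hepatocyte markers 4 lay above 0 and 0 passed, and their median log2 difference was -0.05, beside 0.02 over all tested genes. All 7 Kupffer cell markers lay below 0 (0 passed), and their summed level was 144 to 242 in Rap1-/- livers and 184 to 255 in wild-type livers. The summed level of 5 cholangiocyte markers was 3.99 to 8.01 in Rap1-/- livers and 3.18 to 4.64 in wild-type livers, and 2 of the 5 were higher at an unadjusted p under 0.05, beside 4.01% of all tested genes. At that p 1 of 7 stellate markers was higher too. Lower were 1 each of 10 hepatocyte, 6 sinusoidal endothelial and 5 T and NK cell markers, beside 6.36% of all tested genes in either direction. The summed level of 5 tested markers of dividing cells was 1.84 to 3.52 in Rap1-/- livers and 1.64 to 4.14 in wild-type livers, and that of 3 tested neutrophil markers was 2.90 to 6.47 in Rap1-/- livers and 3.30 to 12.5 in wild-type livers. Their part in the Terf2ip values was not tested.

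The surroundings of Terf2ip were read on chromosome 8, where Acd and Terf2 also lie, 85 and 50 tested genes away on the same side. The nearest tested gene on that side, Kars, encodes lysyl-tRNA synthetase and was at 4.27 to 4.35 in Rap1-/- livers, against 4.20 to 4.40 in wild-type livers (log2 difference -0.02, SE 0.09). On the other side Mon1b was at 1.09 to 1.71 in Rap1-/- livers, against 0.98 to 1.53 in wild-type livers (0.12, SE 0.17). Both neighbours overlapped between genotypes. They do not describe the rest of chromosome 8, where Chst4, named below, passed as lower.

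Genes with a pattern like that of either Terf2ip probe were sought by the root mean square distance between centred log2 values over the 8 arrays. Clone and predicted gene names were left out of this search. For A_52_P381806 the nearest were Chst4, a sulfotransferase gene also on chromosome 8, Upk3b and Myl7, but this order rests on Rap1-/- readings at background, so no distances are given. Chst4 differed by -3.45 (log2, SE 0.25, limma, adjusted p = 0.00461) and was 1 of the 2 genes that passed among all tested genes. For A_55_P2094079, with a root mean square of 0.63, the nearest were Ccn4, Sdf2l1 and Plekhh1, all at distances of 0.32. These genes were chosen for their likeness, and the distances are a description over 8 arrays.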

How the data were processed

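RNA of 8 livers was hybridized to Agilent 1-colour arrays. Spot values are, per the file headers, fluorescence intensity read with Agilent Feature Extraction 10.7.3.1, which the authors deposited after background subtraction and before any scaling between arrays. The calls of a spot as well above background or as an outlier were deposited as 0 or 1. The authors also deposited a table of log2 values, and the submitters' processing notes name limma. That table lay within 0.05 of normexp correction (offset 50) with quantile normalization for 99.5% of values (median absolute difference 0.00103), with column medians of 6.39 to 6.40, so it is on the log2 scale and not centred on genes.

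Control spots (leaving 59305 of 62976) and outlier spots were left out, log2 values of repeated spots were averaged, and each array's 75th percentile was subtracted. Symbols came through RefSeq accessions (GRCm38.p6 table) for 26056 probes (46.8%). The arrays are annotated on another build, so the table served for names and gene order only. Probes well above background on at least 4 of 8 arrays were tested, 31065 probes and 14063 genes (the probe with the highest mean for each). A repeated probe counted as above background where the majority of its spots were. The genotypes were compared with limma 3.58.1 (lmFit, eBayes) in R 4.3.3 without covariates, and p values were adjusted by Benjamini and Hochberg over all tested features with a threshold of 0.05. For single values an exact permutation test (two-sided) ran over all 70 partings of the arrays. No spot was saturated, and the number of arrays limits the precision.

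Tested on simulated data drawn from the 31065 probes, this comparison found 88.0% of 4-fold, 50.5% of 2-fold and 14.6% of 1.5-fold changes and called 0.0214% of unchanged probes. Each simulated run held far more changed probes than passed in the real data, with noise independent between probes. The shares found can thus be too high for data with few changes. Alternatives were other scalings and background corrections, the deposited table, other filters and variance models, blocks for slide and replicate number, single slides and leaving out each array. The files used here hold median but no mean spot signals, so normexp was run on medians. Named genes are the 10 members, up to 3 genes with the smallest p of each list other than the markers, and the nearest tested neighbours of Terf2ip. Alb, Apob and Cyp2e1 are named as examples of hepatocyte markers. The 3 genes most like each Terf2ip probe are named too, and Ppargc1a because of the study's qPCR result. The members and lists were chosen with earlier results of these data known. A planned comparison of the members' protein sequences was not run.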

Additional observations from a re-analysis of the deposited data

Results flagged for a closer look

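For 28 groups of 4 arrays (14 probes in 2 genotypes) the highest or lowest array's gap to its neighbour was divided by the group's range, and 2 groups exceeded Dixon's 95% critical value, where chance gives about 1 in 20. On the Terf2 probe A_52_P391210 the ratio was 0.858, with Rap1-/- replicate 1 at 0.87 on the log2 scale and the other Rap1-/- arrays between -1.37 and -1.05. The array stood apart in the deposited table too, at 8.83, where the other 7 arrays lay between 7.24 and 7.54. On the Pot1a probe A_55_P2115458 the ratio was 0.847, with Rap1-/- replicate 3 at 2.77 and the other Rap1-/- arrays between 3.41 and 3.53. These are different mice, and on the remaining probes of the Rap1-/- group, and on all 14 probes of the wild-type group, the ratio stayed below the critical value.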

How the results depend on the processing

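The Terf2ip probe A_52_P381806 stayed lower in Rap1-/- liver and past the threshold under every alternative that tested it, except within slide 1 (-6.10, adjusted p = 0.0829). Its difference was -2.32 with normexp and quantile normalization. A_55_P2094079 stayed higher throughout and passed with a trended and robust variance alone (adjusted p = 0.0373). Over all probes, 2 passed as reported, 1 in the deposited table, 0 where probes had to be above background on all 8 arrays, 4 with the trended and robust variance, 0 within slide 1, 1 within slide 2, and 1 to 2 with 1 array left out (1 without Rap1-/- replicate 2, Rap1-/- replicate 4 or wild-type replicate 2). Of the shelterin and partner probes, 1 passed as reported, 0 where all 8 arrays had to be above background (which leaves A_52_P381806 untested), 2 with the trended and robust variance and 0 within slide 1. Of their genes, 0 passed as reported. Under 2 alternatives 1 passed, Terf2ip, in opposite directions. It was higher with the trended and robust variance, where A_55_P2094079 stands for it, and lower with the mean of a gene's probes.

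The correlations of deviations of same-numbered arrays were 0.15, -0.09, 0.02 and 0.10. Only for Rap1-/- replicate 1 was the same-numbered wild-type array the most correlated. Such low values from so few arrays cannot settle whether replicate numbers pair the mice. With the replicate number as a block 1 of all probes passed, the Terf2ip probe A_52_P381806 (adjusted p = 0.00604).

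The difference between the 2 Terf2ip probes, 7.62 with background readings as they stand, was 5.36 with these raised to the lowest signal above background (an alternative chosen after the data were seen), 3.21 both with normexp and quantile normalization and in the deposited table, 7.41 within slide 1 and 7.83 within slide 2 (exact permutation p = 0.333, the smallest for 2 against 2), and 7.50 to 7.83 with 1 array left out (p = 0.0571, the smallest for 3 against 4). Sign changes were confined to probes whose adjusted p was 0.891 or higher as reported. Within slide 2 these were Terf2 A_52_P391210 (-0.23), A_55_P2034345 (0.0703) and A_55_P2034350 (0.0125), Tinf2 A_55_P2087865 (-0.18) and Acd (-0.0250). Within slide 1 they were Pot1a (0.18) and Rtel1 (-0.12). With normexp and quantile normalization, the percentile over probes above background on all arrays, and the deposited table, Tinf2 A_55_P2087865 was at -0.0176, -0.00285 and -0.0128. With the same settings Acd was at -0.0376, -0.0266 and -0.0304 and Rtel1 at -0.0436, -0.0231 and -0.0366, and with quantile normalization of the processed signal they were at -0.0273 and -0.0170. With 1 array left out Acd ranged from -0.0385 to 0.0399, Pot1a from -0.15 to 0.10, Rtel1 from -0.0490 to 0.0658, Tert from -0.000247 to 0.27, Terf2 A_52_P391210 from -0.10 to 0.65, Terf2 A_55_P2034345 from -0.0945 to 0.00977 and Tinf2 A_55_P2087865 from -0.0951 to 0.16. The causes were not tested. Dim signal limits Pot1b, which entered the comparison only without the filter (0.25, limma, adjusted p = 0.964). Tert was well above background on every array, and the source of its spread was not tested.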
